A study of Mus musculus with 6 samples.

Results

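A group of 10 receptor genes of natural killer (NK) cells was examined in the mouse abdominal aorta, taken at day 7 of an induced aneurysm, in which the wall of the artery bulges. They were the lectin receptor genes Klrb1c, Klrb1b, Klrb1f, Klrk1, Klrd1, Klrc1, Klrc2, Klre1 and Klrg1, and Ncr1. The genes were chosen by name, with earlier results of these data known. All 10 were among the 54532 genes of the count table, and all 10 passed the filter on low counts. Olfr2 knockout (KO) tissue was compared with wild type (WT) tissue, with 3 libraries of each genotype, and both groups carried an induced aneurysm. Tissue without an aneurysm was not analysed here, so every value describes diseased wall. The method of induction, the strain, the age and sex of the mice, the form of the knockout allele and any pooling of animals are among the points that the labels do not give.

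NK cells are lymphocytes that kill infected or altered cells and secrete interferon-gamma. They read their targets through paired receptors, some of which activate and some of which inhibit. Most of these receptors in the mouse are lectin-like proteins encoded side by side in the NK gene complex, whereas NKp46, the product of Ncr1, has an immunoglobulin fold. Several of the lectin receptors also appear on activated CD8 T cells, gamma-delta T cells and other innate lymphoid cells, so the RNA of the whole wall does not assign them to 1 cell type. In bulk tissue, fewer cells of a type, less RNA per cell and a larger share of RNA from other tissue cannot be told apart.

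Of the 10 genes, 9 lie on chromosome 6 and Ncr1 lies on chromosome 7 (GRCm38). Klrg1 (ENSMUSG00000030114) spans chr6:122270596-122282882, apart from the rest of the cluster. The Klrb1 genes come next, with Klrb1c (ENSMUSG00000030325) at chr6:128778485-128789215, Klrb1b (ENSMUSG00000079298) at chr6:128813706-128826331 and Klrb1f (ENSMUSG00000030154) at chr6:129045901-129057464. Klre1 (ENSMUSG00000050241) at chr6:129577905-129585827 and Klrd1 (ENSMUSG00000030165) at chr6:129591782-129598775 are neighbours on the plus strand. Klrk1 (ENSMUSG00000030149) at chr6:129610323-129623864, Klrc2 (ENSMUSG00000052736) at chr6:129647496-129660689 and Klrc1 (ENSMUSG00000030167) at chr6:129666015-129678973 follow on the minus strand. Ncr1 (ENSMUSG00000062524) occupies chr7:4337724-4345164 on the plus strand, and all 10 are protein-coding.

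Some of these genes are close copies, which bears on what a read count means. Klrc1 and Klrc2 are identical over 83.1% of their aligned coding bases, and Klrc2 and the neighbouring Klrc3 over 95.3%. The last 60 coding bases are shown for the 3 Klrc genes (GENCODE transcripts, GRCm38), with capitals at the position where the 3 are not all alike.
Klrc1: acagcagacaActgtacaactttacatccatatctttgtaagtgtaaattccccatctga
Klrc2: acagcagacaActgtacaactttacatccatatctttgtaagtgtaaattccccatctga
Klrc3: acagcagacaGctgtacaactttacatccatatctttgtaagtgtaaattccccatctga
Klrc1 and Klrc2 do not differ in this stretch, and Klrc3 differs from them at 1 base. Of all 50-base windows in the transcripts of Klrc1, 38.6% also occur in another gene, and the share is 16.3% for Klrc2. For Klrb1b it is 27.2% and for Klrb1c 17%, mostly shared with Gm44511, an annotated gene on the same strand that covers 26.9% of the exon bases of Klrb1b and 13.9% of those of Klrb1c. Gm44511 itself was listed at 0 counts in all 6 libraries. Reads from such stretches may have been dropped or given to the other copy, so the split between Klrc1 and Klrc2 and the absolute levels of Klrb1b and Klrb1c are uncertain. Klrk1, Klrd1, Klrb1f, Klrg1 and Ncr1 shared 0% of their windows with another gene, and Klre1 shared 0.308%.

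As a description of the genes, the RefSeq promoters (GRCm38.p6, 250 bases before to 50 bases after the start) were searched for 3 short motifs on both strands. The promoter table held 8 of the 10 genes, all but Klrd1 and Klrg1. RefSeq starts can differ from the ends of the GENCODE spans given above. For Klrb1c and Klre1, both with a RUNX match, the window lies wholly inside the GENCODE span. The RUNX motif TGTGGT was present in 6 of the 8 promoters, against 16.9% of all 27025 promoters of the same length. The ETS motif GGAAGT was present in 3 of 8, against 24.1% of all promoters, and the T-box motif AGGTGT in 0 of 8, against 13.9%. RUNX and ETS proteins and the T-box factors T-bet and Eomes are known regulators of NK cell genes. Promoters of 4 genes are printed to show where the matches lie, with the matched motifs in capitals.
Ncr1 (chr7:4337465-4337764, plus strand): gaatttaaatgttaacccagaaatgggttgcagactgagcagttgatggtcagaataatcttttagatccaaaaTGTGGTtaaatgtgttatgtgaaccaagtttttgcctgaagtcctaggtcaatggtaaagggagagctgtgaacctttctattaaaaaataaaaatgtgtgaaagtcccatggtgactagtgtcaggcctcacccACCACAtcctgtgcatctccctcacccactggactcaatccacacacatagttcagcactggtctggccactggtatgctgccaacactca
Klrb1c (chr6:128788592-128788891, minus strand): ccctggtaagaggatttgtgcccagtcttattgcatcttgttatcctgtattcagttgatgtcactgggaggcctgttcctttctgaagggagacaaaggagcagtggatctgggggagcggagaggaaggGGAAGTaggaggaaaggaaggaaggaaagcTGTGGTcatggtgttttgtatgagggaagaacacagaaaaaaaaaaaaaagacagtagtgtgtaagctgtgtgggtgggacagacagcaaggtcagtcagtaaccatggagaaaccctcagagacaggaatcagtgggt
Klrk1 (chr6:129623815-129624114, minus strand): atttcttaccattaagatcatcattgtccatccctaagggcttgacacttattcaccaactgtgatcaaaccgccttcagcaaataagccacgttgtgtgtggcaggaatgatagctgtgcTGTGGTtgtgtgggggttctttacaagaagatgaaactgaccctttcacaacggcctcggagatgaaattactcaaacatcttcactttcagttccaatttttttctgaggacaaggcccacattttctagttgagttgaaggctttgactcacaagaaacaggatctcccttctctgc
Klrc1 (chr6:129678924-129679223, minus strand): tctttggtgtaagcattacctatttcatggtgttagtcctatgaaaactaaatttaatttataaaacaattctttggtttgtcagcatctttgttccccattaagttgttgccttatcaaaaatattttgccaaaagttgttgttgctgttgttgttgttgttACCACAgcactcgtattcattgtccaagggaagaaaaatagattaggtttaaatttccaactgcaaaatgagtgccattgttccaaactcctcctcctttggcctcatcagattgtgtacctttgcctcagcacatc
The matches to the RUNX motif in Ncr1 begin 176 and 41 bases before the start, and those in Klrb1c, Klrk1 and Klrc1 begin 89, 129 and 87 bases before it. In Klrb1c the ETS motif begins 119 bases before the start. A match of letters is a description of the sequence and no binding was measured here. Some of these genes are close copies, so the promoters are not independent of each other. Whether the motifs have a part in the difference between KO and WT was not tested.

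The libraries held 17248918 to 21872027 counts. Olfr2, the targeted gene, had 0 counts in all 6 libraries, which allows up to 3 counts or 0.137 to 0.174 CPM (counts scaled to library size), so the genotype labels could not be checked by it. Smooth muscle genes, the defining markers of aorta, were present in every library at a summed 1653 to 2562 CPM in KO and 981.6 to 1452 CPM in WT. The 10 receptor genes together received 2466 to 3541 counts in KO libraries and 4025 to 5229 in WT libraries. In KO replicate 3, skeletal muscle genes summed to 1112 CPM, against 5.81 to 17.9 CPM in the other 5 libraries. WT replicate 3 stood apart from the other WT libraries in its white adipocyte genes, at 1678 CPM against 424.6 and 438.2 CPM, while the KO libraries held 1639 to 2564 CPM. The skeletal muscle signal was not tested for its part in the receptor values, the white adipocyte signal enters a fit given further on, and each comparison was repeated without each library. The labels do not say that libraries came from separate animals, so p-values reflect only how far these libraries vary. Any 2 libraries differed by more than counting noise, with a chi-square per degree of freedom of at least 25.6.

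The comparison asks how receptor transcripts of the aneurysm wall differ where Olfr2 is missing. Since the 10 genes were chosen with earlier results of these data known, the shares of all tested genes beside them serve as description only. All 10 receptor genes had a lower mean in KO than in WT, with log2 fold changes from -1.21 for Klrb1c to -0.42 for Klrg1 and a median of -0.91. The median over all 16237 tested genes was 0.006, and 48.8% of them had a log2 fold change below 0. A log2 fold change below -0.5 was found for 9 of the 10 and for 5.99% of tested genes. For 6 of the 10 genes every KO library lay below every WT library, which held for 9.01% of all tested genes. An unadjusted p under 0.05 was reached in the lower direction by 8 of the 10, against 6.08% of tested genes, and by 0 of the 10 in the higher direction, against 5.23%. After Benjamini-Hochberg adjustment over all tested genes, 0 of the 10 passed edgeR's quasi-likelihood test at 0.05, where 0.0123% of tested genes passed. The smallest adjusted p among the 10 was 0.101. Without WT replicate 3, in which 8 of the 10 genes had their lowest WT value, 4 of the 10 passed, against 0.931% of tested genes, namely Klrb1c, Klrk1, Klrd1 and Ncr1. DESeq2 called 6 of the 10, against 1.56% of the genes with any count, and edgeR without the filter on low counts called 7, against 2.18%. These 2 shares are over 29498 genes, with low-count genes included. That base is wider than the 16237 tested genes, so they are not like the shares above.

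**Figure D1:**
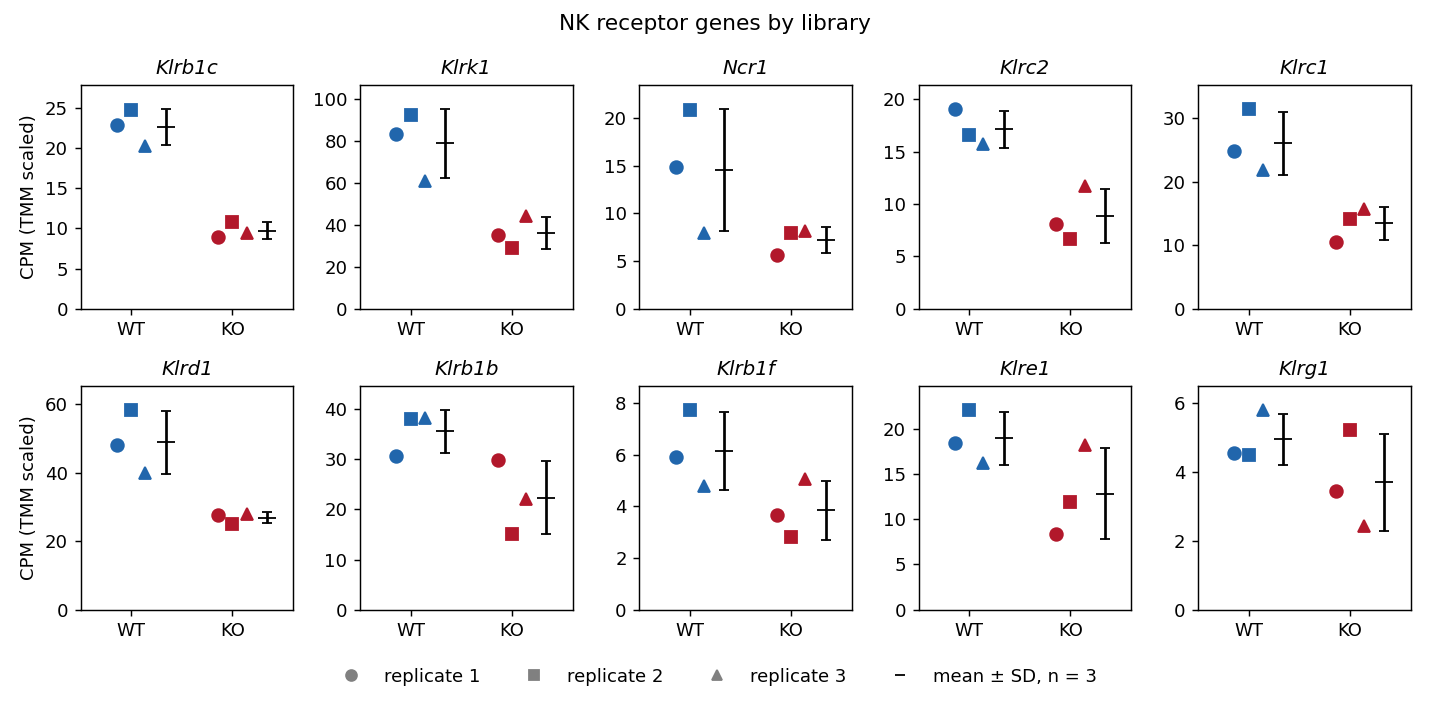
Expression of the 10 receptor genes in each library, in CPM scaled by TMM on a linear axis from 0, with WT in blue and KO in red, symbols for replicates and black marks for mean ± SD (n = 3 each). In 6 panels the red points all lie below the blue points, and in the panels of Klrb1f, Klre1, Klrg1 and Ncr1 they overlap.

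Klrb1c, which encodes the activating receptor NK1.1 used to identify NK cells in some mouse strains, had the largest difference of the group. It stood at 8.89, 10.85 and 9.46 CPM in KO replicates 1 to 3 and at 22.9, 24.7 and 20.2 CPM in WT replicates 1 to 3. The groups were widely separated, and the lowest WT library lay above the highest KO library by more than the SD of either group, 1.004 CPM in KO and 2.25 CPM in WT. KO minus WT came to -1.21 on the log2 scale (SE 0.15, 95% interval -1.55 to -0.87, adjusted p = 0.101, edgeR). By unadjusted p it ranked 3 among all tested genes, after the 2 that passed.

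Klrb1b and Klrb1f, the other receptors of the Klrb1 family in the group, had smaller differences. Klrb1b, an inhibitory receptor for the Clec2d product, had values of 29.8, 15.2 and 22.1 CPM in KO and 30.7, 38.01 and 38.3 CPM in WT. KO replicate 1 reached almost the level of WT replicate 1, yet the groups did not overlap. The fitted log2 difference was -0.67 (SE 0.22, adjusted p = 0.294, edgeR). Klrb1f, whose product binds the Clec2i product, had 3.67, 2.81 and 5.08 CPM in KO and 5.925, 7.76 and 4.78 CPM in WT. KO replicate 3 lay above WT replicate 3 here. For Klrb1f the fitted log2 difference was also -0.67 (SE 0.29, adjusted p = 0.425, edgeR).

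Klrk1 encodes NKG2D, an activating receptor for stress-induced ligands that NK cells and many CD8 T cells carry. It received the most counts of the group and stood at 35.4, 29.3 and 44.2 CPM in KO and 83.5, 92.6 and 60.8 CPM in WT. All KO values lay below all WT values, and WT replicate 3 was the lowest of the WT libraries. Its difference on the log2 scale was -1.12 (SE 0.19, 95% interval -1.56 to -0.68, adjusted p = 0.102, edgeR). Klrk1 made up 22.7 to 26.8% of the summed CPM of the 10 genes in KO and 26.2 to 30.6% in WT, and these shares overlapped.

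Klrd1, Klrc1 and Klrc2 encode the chains of the CD94 and NKG2 receptors, which read the non-classical MHC molecule Qa-1. Klrd1 encodes CD94, the common chain, and stood at 27.5, 25.02 and 27.97 CPM in KO and 48.2, 58.4 and 39.95 CPM in WT. The KO libraries were close together and lay below each WT library. This gave a log2 difference of -0.86 (SE 0.15, adjusted p = 0.102, edgeR). Klrc1, the inhibitory partner NKG2A, stood at 10.6, 14.1 and 15.7 CPM in KO and 24.8, 31.5 and 21.9 CPM in WT. Again the groups did not overlap, at a log2 difference of -0.95 (SE 0.19, adjusted p = 0.124, edgeR).

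Klrc2, the activating partner NKG2C, stood at 8.09, 6.70 and 11.7 CPM in KO and 19.1, 16.6 and 15.7 CPM in WT, with no overlap. The log2 difference of -0.95 (SE 0.21, adjusted p = 0.148, edgeR) was close to that of Klrc1. The ratio of Klrc1 to Klrc2 counts was 1.58 ± 0.45 in KO and 1.53 ± 0.32 in WT (SD, n = 3 each), and the libraries overlapped. The ratio of Klrc1 to Klrd1 counts also overlapped, at 0.503 ± 0.104 in KO and 0.534 ± 0.0171 in WT (SD, n = 3 each). Since the pair shares sequence, neither ratio is exact.

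Ncr1, the most NK-restricted gene of the group in the mouse and also a marker of some other innate lymphoid cells, had the widest spread among the WT libraries relative to its mean. It stood at 5.68, 7.98 and 8.11 CPM in KO and at 14.9, 20.8 and 8.001 CPM in WT. WT replicate 3 fell within the KO range, and the other WT libraries lay above every KO library. Across all libraries the log2 difference was -1.001 (SE 0.32, 95% interval -1.73 to -0.28, adjusted p = 0.273, edgeR). Without WT replicate 3 it was -1.29 (adjusted p = 0.0465, edgeR), and without WT replicate 2 it was -0.66 (adjusted p = 0.611, edgeR).

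Klre1 and Klrg1 had the smallest differences. Klre1, which forms receptors with the products of Klri1 or Klri2, stood at 8.38, 11.9 and 18.3 CPM in KO and 18.5, 22.2 and 16.3 CPM in WT. KO replicate 3 reached the WT range. The fitted difference was -0.56 log2 units (SE 0.26, 95% interval -1.16 to 0.04, adjusted p = 0.479, edgeR), and it was -0.90 without KO replicate 3 and -0.33 without KO replicate 1. Klrg1, an inhibitory receptor for cadherins found on mature NK cells and on effector and regulatory T cells, stood at 3.44, 5.22 and 2.42 CPM in KO and 4.57, 4.49 and 5.81 CPM in WT. KO replicate 2 lay above 2 of the WT libraries. The fitted difference was -0.42 log2 units (SE 0.30, 95% interval -1.11 to 0.26, adjusted p = 0.679, edgeR), so the interval holds both no difference and a difference as large as that of Klrc1. It was -0.76 without KO replicate 2, -0.19 without KO replicate 3 and -0.30 without WT replicate 3.

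**Figure D2:**
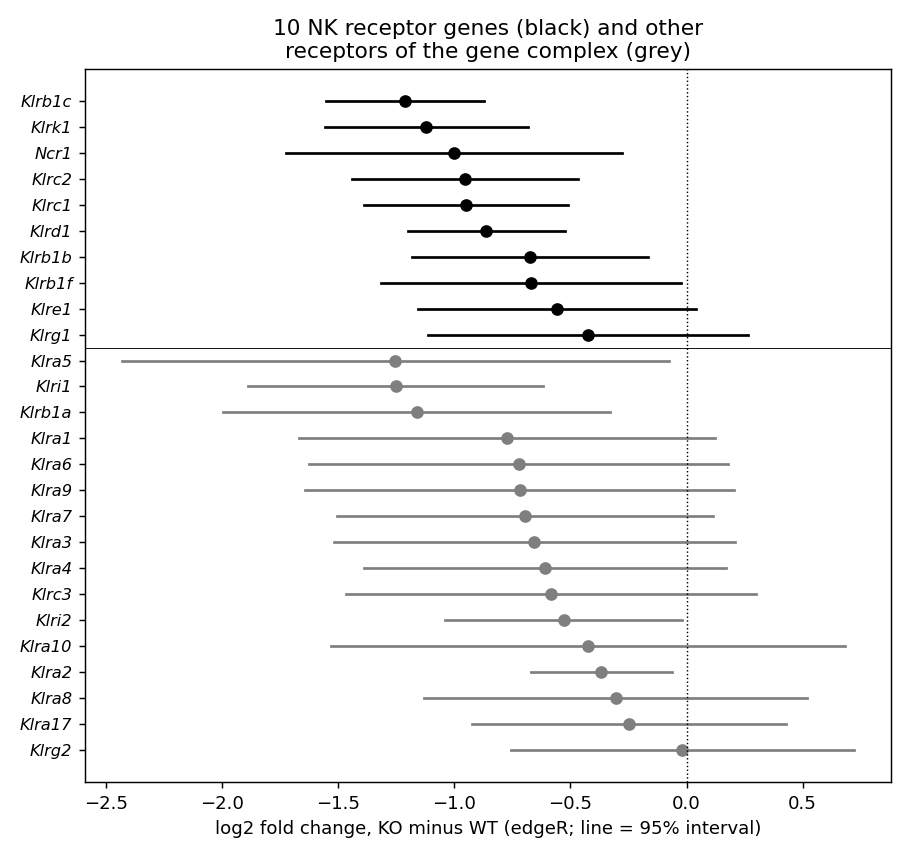
Log2 fold change of KO minus WT with its 95% interval from edgeR, for the 10 receptor genes in black and the 16 other tested lectin-like receptors of the gene complex in grey. All points lie left of 0, and the black intervals of Klre1 and Klrg1 and most grey intervals reach across it.

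The libraries did not order the 10 genes alike. Among WT libraries, replicate 2 held the highest value of 7 of the 10 genes and replicate 3 the lowest of 8. Among KO libraries, replicate 3 held the highest value of 7 of the 10. The other 3 were Klrb1c and Klrg1, highest in KO replicate 2, and Klrb1b, highest in KO replicate 1. In their mean standardised log2 CPM the 10 genes stood at -0.90, -0.86 and -0.46 in KO replicates 1 to 3 and at 0.72, 1.09 and 0.41 in WT replicates 1 to 3. Among 13910 genes compared, those whose log2 CPM followed this mean most closely over the 6 libraries included Traf1, Parp9, Gpr18 and Tpm3-rs7, with Pearson r from 0.992 to 0.997. Those coefficients include the difference between genotypes and are given as a description.

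Levels can be compared between genes only per length, here as CPM per kilobase of all annotated exons. In WT, Klrd1 had the highest level at 38.1 ± 7.21, above Klrb1b at 16.0 ± 1.93 without overlap between libraries (SD, n = 3). Klrb1b, Klrc1 (13.1 ± 2.48), Klrk1 (10.99 ± 2.28), Ncr1 (9.46 ± 4.16) and Klrb1c (7.63 ± 0.76) followed, and each overlapped its neighbour in this order. Klre1 at 5.44 ± 0.853 lay below Klrb1c and above Klrg1 at 3.50 ± 0.526 without overlap. Klrb1f (3.04 ± 0.743) and Klrc2 (2.95 ± 0.300) came last and overlapped each other. The annotated exons of Klrk1 and Klrc2 sum to 7183 and 5812 bases and include long transcripts, which lowers their values per length. In KO, Klrd1 was again highest at 20.95 ± 1.25 and Klrc2 lowest at 1.52 ± 0.444.

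The other lectin-like receptors of the NK gene complex had lower means in KO as well. Of 18 genes on that list 17 were in the table and 16 were tested, and all 16 had a negative log2 fold change, with a median of -0.63. With libraries scaled by total counts alone 15 of the 16 were negative. An adjusted p under 0.05 was reached by 0 of them by edgeR, an unadjusted p under 0.05 by 5 and a KO range wholly below WT by 3. Over all tested genes, 6.08% reached an unadjusted p under 0.05 in the lower direction and 9.01% had such a range. These 2 shares also stand beside the counts of the lists that follow. Klri1, a partner of Klre1, stood at 3.38, 2.05 and 1.91 CPM in KO and 6.63, 5.58 and 5.24 CPM in WT, which is -1.25 on the log2 scale (SE 0.28, adjusted p = 0.146, edgeR). Klrb1a, another Klrb1 receptor, differed by -1.16 (SE 0.37) and Klra5, with 4 to 27 counts in each library, by -1.26 (SE 0.52). Klra2, which is known from myeloid cells rather than NK cells, had one of -0.37 (SE 0.13).

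The Klra genes encode the Ly49 receptors, which read classical MHC class I and are expressed by subsets of NK cells. Klra8, the activating receptor Ly49H, stood at 7.34, 5.47 and 16.9 CPM in KO and at 12.3, 13.5 and 10.99 CPM in WT. KO replicate 3 was the highest of all 6 libraries, at a log2 difference of -0.30 (SE 0.36, adjusted p = 0.837, edgeR). Klra7 and Klra4 likewise had their highest KO value in replicate 3, at 17.02 and 8.44 CPM, and log2 fold changes of -0.70 (SE 0.36) and -0.61 (SE 0.34). Summed over the Klra genes other than Klra2, the libraries stood at 26.1, 33.1 and 61.3 CPM in KO and 63.9, 67.4 and 49.5 CPM in WT, and overlapped. Per unit of Klrb1c, this sum was 2.94, 3.06 and 6.48 in KO and 2.79, 2.73 and 2.45 in WT. The KO ratios were all above the WT ratios, though only that of KO replicate 3 lay far above them. Without KO replicate 3 the median log2 fold change of the 16 other receptors was -1.02, and without KO replicate 1 it was -0.41. Ly49 genes are close copies of each other, so single values are uncertain.

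Receptors of this kind signal through adaptors that carry the activating or inhibitory message. Of 15 adaptor and signalling genes 14 were tested, and 13 had a negative log2 fold change, or 14 with DESeq2 size factors, at a median of -0.47. An unadjusted p under 0.05 was reached by 8, a KO range wholly below WT by 9, and an adjusted p under 0.05 by 0 (edgeR). Hcst, the adaptor DAP10 that carries NKG2D signals, stood at 11.8, 10.03 and 13.0 CPM in KO and 13.9, 17.9 and 16.1 CPM in WT, a log2 difference of -0.46 (SE 0.17). Tyrobp, the adaptor DAP12 that myeloid cells also use, had one of -0.12 (SE 0.17), and its libraries overlapped. The kinase gene Zap70, shared with T cells, differed by -0.68 (SE 0.16), Fyn by -0.51 (SE 0.10), Plcg2 by -0.56 (SE 0.11) and the phosphatase gene Inpp5d by -0.51 (SE 0.12).

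Genes for ligands of these receptors were read too, and RNA of the whole wall does not assign them to a cell type. Of 15 ligand genes 12 were in the table and 9 were tested, 7 with a negative log2 fold change and 3 with an unadjusted p under 0.05. H2-T23, which encodes Qa-1, the ligand of the CD94 and NKG2 receptors, stood at 338.2, 372.5 and 458.1 CPM in KO and 534.7, 788.9 and 561.7 CPM in WT. The groups did not overlap, and the log2 difference was -0.69 (SE 0.19, adjusted p = 0.205, edgeR). Clec2i, the ligand gene of Klrb1f, differed by -0.60 (SE 0.20), and its KO libraries lay below its WT libraries by a narrow margin, with 14.8 CPM as the highest KO value and 15.1 CPM as the lowest WT value. Among the cadherin ligands of Klrg1, Cdh2 differed by -0.49 (SE 0.13) and Cdh1 by -0.67 (SE 0.34), both on the log2 scale. H60c, a ligand gene of NKG2D, was listed at 0 counts in all libraries.

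Transcription factors that direct NK cells had negative log2 fold changes for 11 of 12 tested genes, with a median of -0.44 and an unadjusted p under 0.05 for 5. Eomes, the factor that separates NK cells from other innate lymphoid cells, stood at 4.30, 6.40 and 8.86 CPM in KO and 8.53, 13.2 and 10.02 CPM in WT. KO replicate 3 lay above WT replicate 1, at a log2 difference of -0.69 (SE 0.28, adjusted p = 0.388, edgeR). Tbx21, which encodes T-bet of NK and Th1 cells, did not overlap between groups and differed by -0.90 (SE 0.27) on the log2 scale. Gata3 (-0.999, SE 0.25) and Stat4 (-0.68, SE 0.18) had the smallest p-values of the list, and both are also T cell genes.

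Among 15 cytotoxic effectors, 14 had a negative log2 fold change, 10 reached an unadjusted p under 0.05 and 5 had a KO range wholly below WT, at a median of -0.75. Gzmb, the granzyme B gene, stood at 10.2, 11.7 and 17.4 CPM in KO and 30.3, 43.4 and 27.3 CPM in WT, a log2 fold change of -1.36. Prf1, the gene of pore-forming perforin, stood at 4.30, 7.01 and 13.6 CPM in KO and 14.8, 22.2 and 12.9 CPM in WT. As in Klre1 and Klra8, KO replicate 3 reached the WT range, and the log2 fold change was -0.99 (SE 0.38). Without KO replicate 3 the median of the 15 was -1.18. Of 21 other NK surface receptors, 18 had a negative log2 fold change and 12 reached an unadjusted p under 0.05, led by the cytokine receptor chain Il12rb1 (-0.84, SE 0.16), the chemokine receptor Cxcr3 (-0.78, SE 0.18) and Cd96 (-0.73, SE 0.20). Of 10 tested cytokine genes that drive NK cells, 9 were negative. The log2 fold change of Il18 was -0.79 (SE 0.22), and that of Il15, the survival factor of NK cells, was -0.44 (SE 0.24, adjusted p = 0.537, edgeR). In each of these lists 0 genes had an adjusted p under 0.05 (edgeR).

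**Figure D3:**
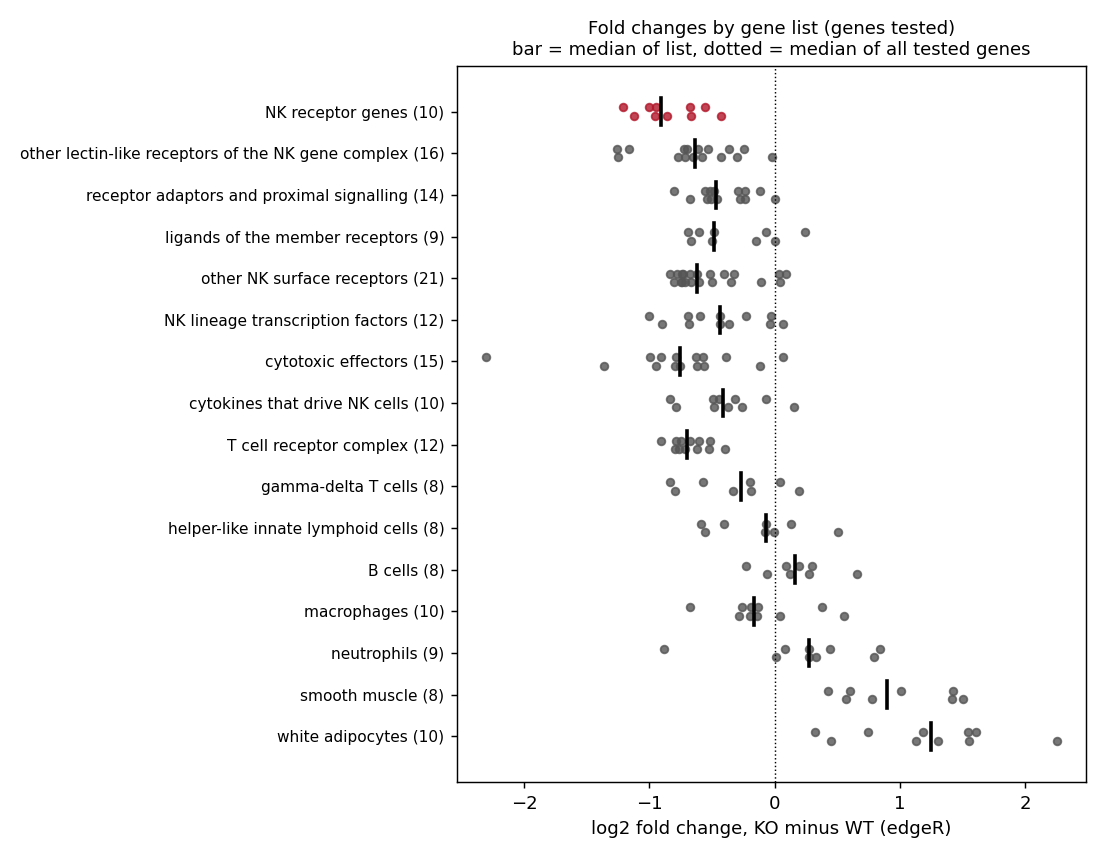
Log2 fold change of KO minus WT for each tested gene (points), by gene list, with the 10 receptor genes in red, black bars for the list medians and a dotted line at the median of all tested genes. The medians of the receptor genes (-0.91), cytotoxic effectors (-0.75) and T cell receptor complex (-0.70) lie furthest left. Those of white adipocytes (1.25) and smooth muscle (0.89) lie to the right of the dotted line.

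Other lymphocytes that can carry these receptors were measured beside them. All 12 genes of the T cell receptor complex had a negative log2 fold change, with a median of -0.70. Of them 11 had an unadjusted p under 0.05, against 6.08% of tested genes in the lower direction. A KO range wholly below WT was found for 10 of the 12, against 9.01% of tested genes. The summed level of the 12 genes was 188.7 to 237.2 CPM in KO and 311.2 to 384 CPM in WT. Gamma-delta T cell genes were negative for 6 of 8, at a median of -0.264, and for 4 of 8 without WT replicate 2, at a median of -0.079. Their sums of 36.5 to 42.8 CPM in KO and 37.6 to 49.7 CPM in WT overlapped. Helper-like innate lymphoid cell genes were negative for 6 of 8, at a median of -0.07, or for 5 of 8 with upper quartile factors or libraries scaled by total counts alone. Without WT replicate 3 that count was 3 of 8 at a median of 0.06, and without WT replicate 1 the median was -0.31. Their sums of 190.3 to 232.9 CPM in KO and 213.1 to 292.3 CPM in WT overlapped. B cell genes were negative for 2 of 8, at a median of 0.16, but for 5 of 8 without KO replicate 1 (median -0.07) or without WT replicate 3 (median -0.015). Neutrophil genes were negative for 1 of 9, at a median of 0.28, and for 3 of 9 without KO replicate 2, at a median of 0.07. Macrophage genes were negative for 7 of 10, at a median of -0.16, but for 2 of 10 without WT replicate 2, at a median of 0.08. The direction of the B cell, macrophage and helper-like innate lymphoid lists thus turned with single libraries.

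Markers of the other tissues of the wall had the opposite sign. All 8 smooth muscle genes had a positive log2 fold change, at a median of 0.89, and 7 had an unadjusted p under 0.05. All 10 white adipocyte genes were positive too, at a median of 1.25, or 2.53 without WT replicate 3. Of them 5 had an unadjusted p under 0.05, against 5.23% of all tested genes in the higher direction. In both lists 0 genes had an adjusted p under 0.05 by edgeR, while DESeq2 called 6 smooth muscle genes and 1 white adipocyte gene. DESeq2 also called 6 of 12 T cell receptor complex genes, 5 of 15 cytotoxic effectors and 5 of 14 adaptor genes. It called 4 of 21 other NK surface receptors and 3 of 12 transcription factors. Of the other lectin-like receptors, the ligand genes and the cytokine genes it called 1 each, against 1.56% of all genes with any count. The 5 tested skeletal muscle genes were positive at a median of 4.47, but without KO replicate 3 the median was -0.71 and 4 were negative. No list gene other than H60c was at 0 in all libraries.

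The receptor genes were then set against the T cell signal within each library. The Cd3d, Cd3e and Cd3g genes, chains of the T cell receptor complex, summed to 39.4, 44.0 and 41.96 CPM in KO and 59.7, 68.9 and 58.5 CPM in WT. For each CPM of that sum, the 10 receptor genes held 3.60, 2.93 and 3.93 CPM in KO and 4.58, 4.60 and 3.96 CPM in WT. KO replicate 3 and WT replicate 3 were nearly equal in this ratio, and the groups did not overlap. Klrb1c per unit of Cd3 was 0.226, 0.246 and 0.226 in KO and 0.383, 0.358 and 0.345 in WT, a clear separation. Ncr1 per unit of Cd3 overlapped, at 0.173 ± 0.0256 in KO and 0.229 ± 0.0843 in WT (SD, n = 3 each), and so did Klrk1 per unit of Cd3, at 0.873 ± 0.196 and 1.26 ± 0.194 (SD, n = 3 each).

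**Figure D4:**
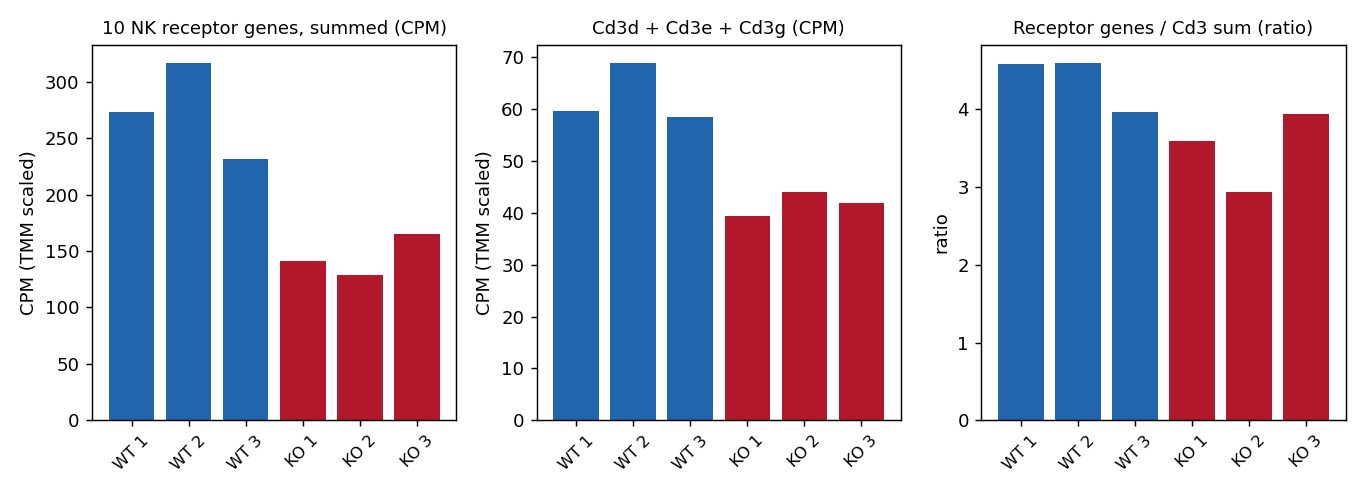
Bars from 0 for each library, WT in blue and KO in red, showing the summed CPM of the 10 receptor genes, the summed CPM of Cd3d, Cd3e and Cd3g, and the ratio of the 2 sums. The first 2 panels separate the genotypes widely, and in the third KO replicate 3 (3.93) and WT replicate 3 (3.96) nearly meet.

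With the mean of the T cell receptor complex list as a covariate, the median log2 fold change of the 10 genes was -0.41. An unadjusted p under 0.05 was reached by 1 of them, against 401 of all 16237 tested genes in either direction (edgeR). Klrb1c stood at -0.72 in that fit, Ncr1 at 0.50 (SE 0.67) and Klre1 at 0.25 (SE 0.68). That list separates the genotypes itself, so the covariate and the genotype cannot be told apart with 6 libraries. The white adipocyte list was by its sums higher in every KO library than in WT replicates 1 and 2, and only WT replicate 3 lay in the KO range. It is thus also largely tied to genotype, and a fit with it cannot cleanly separate them. With the mean of the white adipocyte list as a covariate the median was -0.67 and all 10 log2 fold changes were negative. There 6 of the 10 had an unadjusted p under 0.05, against 897 of all 16237 tested genes in either direction (edgeR). Ncr1 stood at -0.09 and Klre1 at -0.16 in that fit, and Klrb1c at -1.03. In both fits 0 of the 10 passed after adjustment (edgeR).

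The related lists had other medians in these fits as well. With the T cell covariate, 7 of the 15 cytotoxic effectors were negative, at a median of 0.27, and with the white adipocyte covariate 11 were, at a median of -0.32. The 16 other lectin-like receptors had a median of -0.04 with the T cell covariate, 11 of them negative, and of -0.18 with the white adipocyte covariate, 12 of them negative. The 9 ligand genes had medians of 0.16 and -0.03 in the same order and the 14 adaptor genes of -0.13 and -0.19. The medians of the transcription factors were -0.59 and -0.48 and those of the other NK surface receptors -0.47 and -0.26.

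**Figure D5:**
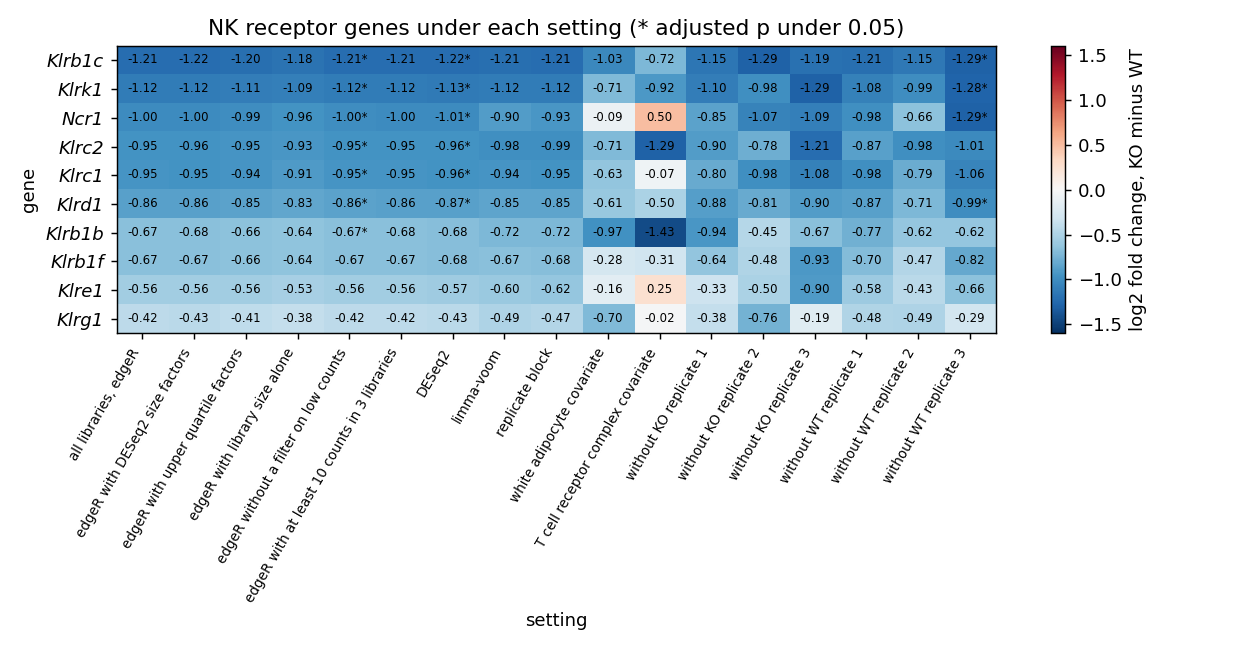
Log2 fold change of KO minus WT for each receptor gene (rows) under each setting (columns), with colour from blue (lower in KO) to red and asterisks for an adjusted p under 0.05. Cells are negative throughout except Klre1 (0.25) and Ncr1 (0.50) with the T cell covariate, and asterisks appear without the low-count filter, by DESeq2 and without WT replicate 3.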

How the data were processed

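Poly-T selected RNA of abdominal aorta was sequenced by the submitters, per the labels' protocols. The deposited table holds raw read counts per gene, and HISAT2 2.0.5, featureCounts 1.5.0-p3 and GRCm38 appear in the submitters' processing notes. For strand and for reads matching several genes, the settings used are not stated there.

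The test was edgeR's quasi-likelihood test (edgeR 4.0.16, R 4.3.3) after filterByExpr, which kept 16237 genes, and TMM scaling. P-values were adjusted by Benjamini-Hochberg over every tested gene, with a threshold of 0.05. CPM were scaled by TMM, and log2 CPM took a prior count of 2. A standard error is the size of the log2 fold change divided by the square root of F. Positions and exon lengths came from GENCODE mouse release 21, and promoters from RefSeq. The fit was tested on simulated data. DESeq2 1.42.0, limma-voom (limma 3.58.1) and 14 other settings were alternatives.

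The members and lists were chosen with earlier results of these data known. The text names all members, up to 4 genes of each pathway list and up to 2 of each cell type list by smallest p, a fixed panel, and the 5 genes most alike in pattern. Not every gene that rule takes is reported here. H60c, named for its counts of 0, was chosen after its values were seen, and Klrc3 and Gm44511 are named for their shared sequence.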

Additional observations from a re-analysis of the deposited data

How the results depend on the processing

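Each result was recomputed under 16 alternatives. All 10 receptor genes stayed lower in KO under each of them except with the T cell receptor complex covariate, where Klre1 stood at 0.251 and Ncr1 at 0.497, and the cause was not tested. The median log2 fold change of the 10 genes was -0.408 with that covariate, -0.667 with the white adipocyte covariate, and -1.001 to -0.687 with single libraries left out. No low-count filter gave 644 genes past the threshold, 7 of them receptor genes, and DESeq2 gave 460 and 6. Limma-voom, either covariate and the replicate block each gave 0 genes, with 1845, 897 (adipocyte), 401 (T cell) and 1606 at an unadjusted p under 0.05. Leaving out single libraries gave 0 to 155 genes past the threshold and 0 to 4 receptor genes, with the highest values without WT replicate 3. Deviations from the group means correlated at -0.101, -0.062 and -0.12 between same-numbered libraries, and at 0.001 to 0.092 between differently numbered ones. With 3 libraries of each genotype, these values cannot settle whether the replicate numbers pair the libraries. The labels do not say what the numbers mark. With the block, the receptor genes had a median of -0.887 and a smallest adjusted p of 0.221 (edgeR). Klrg1, with 52 to 102 counts in each library, has the widest interval relative to its difference, followed by Klre1.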
